A study of Mus musculus with 2 samples.

Results

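Mitosis and spindle genes encode the proteins that drive a cell into division, attach its chromosomes to the spindle and separate them. The list described here was fixed by name and holds 50 genes. Its members on the arrays were all probe sets assigned by the platform annotation to 1 listed gene and no other. That rule found 116 probe sets for 49 of the 50 genes, out of 45037 probe sets in all, and no probe set was assigned to the cyclin gene Ccnb1 alone. The samples were haematopoietic stem cells, which sit in the marrow, renew themselves and produce every blood lineage, from mice of 3 months. One sample was labelled Wip1 knockout and the other wild type, and total RNA of each was hybridised to 1 Affymetrix array. The labels do not state the kind of knockout allele, how the cells were sorted, or the number, strain and sex of the animals.

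Most of these genes are switched on together late in the cell cycle. In quiescent cells a repressor complex that contains MuvB proteins holds them off, and in dividing cells B-Myb and FoxM1 join MuvB and activate them. MuvB is known to bind a short promoter element, the cell cycle genes homology region, often near CCAAT boxes bound by NF-Y. Wip1, the phosphatase encoded by Ppm1d, is known to restrain p53, and p53 is known to lower mitotic genes through the inhibitor gene Cdkn1a and that repressor. Long-term stem cells of adult marrow are known to divide rarely.

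RefSeq promoter windows (GRCm38.p6, 250 bases before to 50 after a start site) were found for 41 of the 50 genes, in 44 windows. Ccna2, Cdc25c, Kif20a, Foxm1, Incenp, Smc4, Aurkb, Tpx2 and Spc24 had none. A pair of short motifs was searched on both strands, TTTGAA for the homology region and CCAAT for the NF-Y box. They can share 1 base where they adjoin. TTTGAA was in 33 of 44 windows (75%), against 17.9% of all 32851 windows. CCAAT was in 35 windows (79.5%), against 37.4% of all, and both were in 30 windows (68.2%), against 6.95% of all. A match is a description of letters and not a measured binding site. The 120 bases before the start site are shown for 6 members, 5′ to 3′ on the gene's strand, with either motif in capitals. Cdk1, Cdc20 and Top2a are shown for their motifs. Kif23, Plk4 and Nuf2 are shown because they are among the members that differed most between the arrays.
Cdk1 (chr10:69352913-69353032, minus strand): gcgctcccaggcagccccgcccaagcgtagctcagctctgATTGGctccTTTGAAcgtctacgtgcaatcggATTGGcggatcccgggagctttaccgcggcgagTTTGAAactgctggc
Cdc20 (chr4:118437344-118437463, minus strand): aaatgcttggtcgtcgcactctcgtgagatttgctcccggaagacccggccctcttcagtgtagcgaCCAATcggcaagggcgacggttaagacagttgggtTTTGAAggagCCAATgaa
Top2a (chr11:99024190-99024309, minus strand): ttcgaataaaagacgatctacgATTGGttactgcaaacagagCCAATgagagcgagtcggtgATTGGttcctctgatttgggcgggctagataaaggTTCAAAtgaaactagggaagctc
Kif23 (chr9:61946800-61946919, minus strand): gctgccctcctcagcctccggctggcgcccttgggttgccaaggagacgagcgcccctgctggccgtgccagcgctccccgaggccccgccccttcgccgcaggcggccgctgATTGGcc
Plk4 (chr3:40799831-40799950, plus strand): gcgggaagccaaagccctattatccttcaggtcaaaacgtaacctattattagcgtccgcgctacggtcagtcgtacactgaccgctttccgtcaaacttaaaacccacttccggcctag
Nuf2 (chr1:169531465-169531584, minus strand): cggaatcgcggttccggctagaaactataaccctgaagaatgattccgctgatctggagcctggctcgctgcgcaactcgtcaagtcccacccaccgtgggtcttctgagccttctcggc
The shown stretch of Cdk1, the kinase gene at the centre of mitotic entry, holds TTTGAA at positions -71 and -15 from the start and CCAAT at -80 and -48. In Cdc20 TTTGAA begins at -18, and in Top2a at -23 on the opposite strand. The Kif23 stretch holds CCAAT alone, since its TTTGAA begins at base 3 counted from the start site and is not shown. The windows of Plk4 and Nuf2 hold neither motif.

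The arrays gave near-equal intensities for the whole programme. Values are the deposited intensities of the brightest probe set of each gene, and differences are log2 knockout minus log2 wild type after both arrays were centred to the same median, which moved differences by 0.01. A gene was called detected when its intensity was above the median of all probe sets on at least 1 array. All 49 measured members were detected, as were 11440 of 18193 genes with a probe set of 1 gene. Of the members, 47 lay above the 75th percentile of probe sets on both arrays, the exceptions being Cdc25c and Foxm1. Among the 11440 detected genes, 6692 lay above it on both arrays. The members' differences ran from -0.33 (Plk4) to 0.28 (Kif23), with a median of -0.07 and an SD of 0.13 among genes. Over all 11440 detected genes the median was 0.00015 and the SD 0.28, and over 6692 genes above the 75th percentile on both arrays these were -0.01 and 0.24.

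With 1 array per genotype no test across animals can be made, no p-value is given, and genotype cannot be told apart from any other difference between these samples. The spread among a gene's own probe sets is the one measure of error these values allow, and it leaves out variation between animals and between arrays. The SD of one probe set's log2 difference around its gene was 0.22 (5084 genes), and 0.17 in the 31 members that had several detected probe sets. Of the 49 members, 42 differed by less than 0.22, 6 were lower and 1 was higher by at least that much. Among all detected genes, 33.5% differed by at least that much. Bright probe sets agreed better, and 47 of the 49 members are bright. Over probe sets above the 75th percentile on both arrays that SD was 0.15 for all genes and 0.12 for the members. At 0.15, 13 of all 49 members were lower and 2 higher by at least that much (30.6% in both directions together). Of the 6692 genes above the 75th percentile on both arrays, 1644 were lower and 1477 higher (46.6% together). At 0.12, 19 members were lower and 6 higher (51.0% together), and 2049 and 1799 of those genes were (57.5% together). The member counts include the dimmer Cdc25c and Foxm1. In bulk RNA, fewer cells in division and less mitotic RNA in each cell cannot be told apart.

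**Figure D1:**
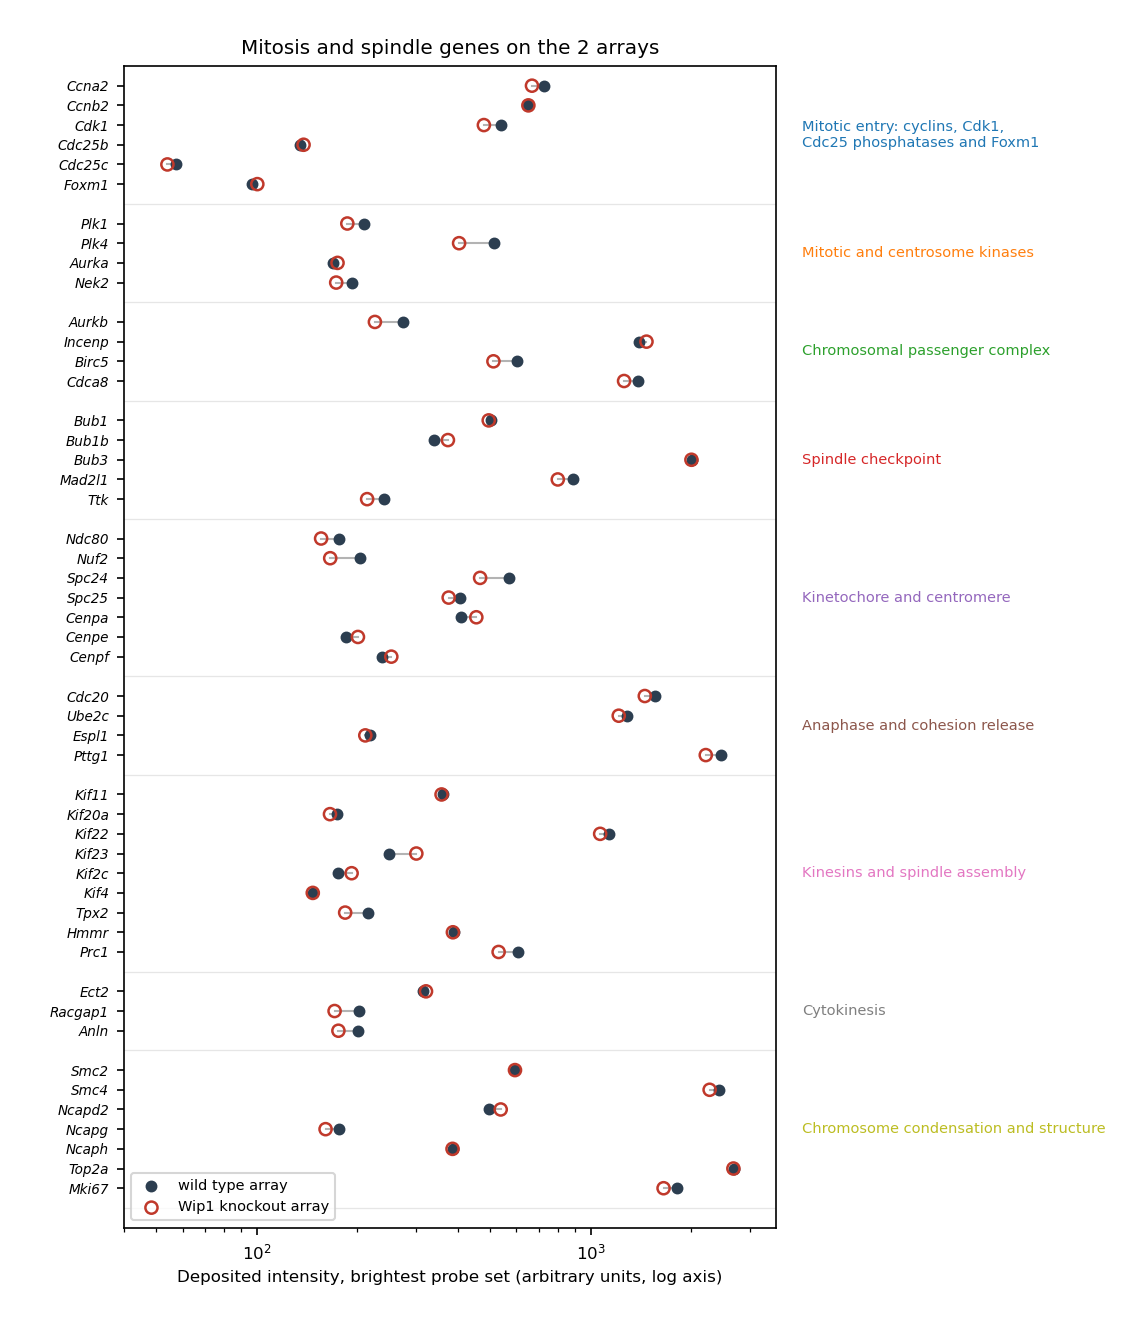
Deposited intensity (arbitrary units, log axis) of the brightest probe set of each of 49 mitosis and spindle genes, with filled points for the wild-type array and open circles for the Wip1 knockout array, grouped by role. The points nearly coincide, and the widest gaps are those of Plk4 (514 in the wild type and 404 in the knockout) and Kif23 (250 and 301).

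A small majority of members was lower in the knockout. After centring 30 were lower and 19 higher, where 50.0% of detected genes were lower and 50.0% higher. By the deposited values without centring 34 were lower, 13 higher and 2, Kif4 and Ncaph, were identical on the arrays. Without centring, 69.4% of members were thus lower, against 51.8% of detected genes. Only 4 members were lower by at least 1.2-fold (8.16%, against 11.7% of detected genes) and 1 was higher by that much (2.04%, against 13.2%). No member reached 1.5-fold in its brightest probe set, a size that 1.55% of detected genes passed downwards and 2.30% upwards. Among genes above the 75th percentile on both arrays, 10.9% were lower and 11.1% higher by at least 1.2-fold, and among the 47 members there 4 and 1 were.

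Genes of mitotic entry gave values close together on the arrays, with Cdk1 farthest apart. Cdk1 had an intensity of 479 in the knockout and 539 in the wild type, a log2 difference of -0.16 by its only probe set. Ccna2, the cyclin of S and G2 phase, read 668 and 723 (-0.10, with -0.04 in its other probe set), and the B-type cyclin gene Ccnb2 read 651 and 650 (0.02). Both differences are smaller than the SD between probe sets. Cdc25b and Cdc25c encode phosphatases that activate Cdk1. Cdc25b read 138 in the knockout and 135 in the wild type (0.05). Cdc25c was dim, with 54.0 and 57.5 (-0.07), and its other probe set went the other way (0.10). Foxm1, the transcription factor gene of this programme, read 100 in the knockout and 96.7 in the wild type (0.07), and its 3 detected probe sets ran from -0.01 to 0.07. The group's median was -0.03 over 6 genes, and it turned to 0.01 when each gene was given the median of its probe sets.

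Among the mitotic and centrosome kinases, Plk4 differed most of all members. Plk4, the kinase that starts centriole duplication, read 404 in the knockout and 514 in the wild type. Its difference of -0.33 (1.26-fold lower) was joined by -0.15 and -0.22 in its other probe sets, so all 3 were lower. As the median of the 3 it was -0.22, under the 1.2-fold size. Plk1, the polo-like kinase of mitotic entry and spindle assembly, read 187 and 210 (-0.16). Nek2, a kinase that separates centrosomes, read 173 and 193 (-0.14, with -0.36 in another probe set). Its remaining detected probe set passed the floor on the knockout array alone, at 27.9 against 23.4, so its 0.16 is a bound near background. Aurka, the spindle pole kinase gene, was slightly the other way, with 175 in the knockout and 170 in the wild type (0.05). The group's median of -0.15 over 4 genes stayed between -0.16 and -0.13 under all 10 alternative settings.

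The chromosomal passenger complex corrects faulty chromosome attachments and guides cytokinesis, and 3 of its 4 genes were lower in the knockout. The kinase gene Aurkb read 226 in the knockout and 275 in the wild type, with -0.27 and -0.29 in its 2 probe sets. Birc5, which encodes survivin, read 512 and 602 (-0.22). Cdca8, which encodes borealin, read 1260 and 1391 (-0.13), with -0.14 and -0.42 in its other probe sets. These 3 genes were lower in every detected probe set. Incenp, the scaffold subunit gene, read 1471 in the knockout and 1395 in the wild type (0.09). That probe set is marked _x_at and can match several transcripts. The next brightest was lower, at 289 and 318 (-0.12). Its 4 detected probe sets spread from -0.15 to 0.71. The high value came from a dim probe set that read 78.8 and 48.7. The group's median was -0.17, and it ran from -0.27 to -0.14 over all settings. The -0.27 came from only 2 genes, when probe sets marked _s_at, _x_at or _a_at were left out.

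Spindle checkpoint genes, whose products delay anaphase until every kinetochore is attached, showed no shared direction. Mad2l1 read 798 in the knockout and 884 in the wild type (-0.13), and the kinase gene Ttk read 214 and 241 (-0.15). Bub1b, which encodes BubR1, went the other way with 374 and 341 (0.15, with -0.0062 in its other probe set). Bub3 read 2006 and 2012 (0.01), and Bub1 read 496 and 504 (-0.01). Bub1 also had a dim probe set at 32.2 and 53.2, whose difference of -0.71 stood far from that of the brighter one. The median of the 5 genes was -0.01, and its sign turned after quantile normalization (0.01), after loess (0.02) and with a floor at the 75th percentile (0.01).

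At the kinetochore, the 4 genes of the Ndc80 complex, which binds microtubule ends, were all lower in the knockout. Nuf2 read 166 in the knockout and 203 in the wild type (-0.28), and Spc24 read 467 and 571 (-0.28). Ndc80 read 156 and 177 (-0.16), and Spc25 read 376 and 406 (-0.10, with -0.07 in its other probe set). The complex was singled out after its values were seen. Its median was -0.22, and 3 of the 4 genes rest on a single probe set. The other kinetochore and centromere genes were higher in their brightest probe sets. Cenpa, the histone variant gene that marks centromeres, read 455 in the knockout and 409 in the wild type (0.17), with 0.67 in a dimmer probe set (92.2 and 58.3). Cenpe, a kinetochore kinesin, read 201 and 185 (0.13, with -0.01 in its other probe set), and Cenpf read 253 and 238 (0.10, with -0.06 and -0.08 in its other probe sets, so that it was lower as their median). For the 7 genes together the median was -0.10, and it turned to 0.01 when probe sets marked _s_at, _x_at or _a_at, which can match several transcripts, were left out.

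All 4 genes of anaphase and cohesion release were lower in the knockout, each by a small amount. Pttg1, which encodes securin, the inhibitor of separase, read 2214 in the knockout and 2454 in the wild type (-0.13), with -0.49 and -0.15 in its other probe sets. Cdc20, an activator of the anaphase-promoting complex, read 1454 and 1563 (-0.09), and its 3 probe sets ran from -0.09 to 0.0045. Ube2c, the ubiquitin-conjugating enzyme of that complex, read 1215 and 1283 (-0.07). Espl1, which encodes separase, the protease that cuts cohesin, read 212 and 219 (-0.03). The median of -0.08 kept its sign under every setting tried, from -0.09 to -0.04.

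Kinesins and spindle assembly genes went both ways. Kif23 was the member with the highest difference, at 301 in the knockout and 250 in the wild type (0.28, 1.22-fold higher), while its other 2 probe sets were under the detection floor on both arrays. Its partner in the centralspindlin complex, the GTPase-activating protein gene Racgap1, was lower, with 171 and 203 (-0.23, and -0.03 in its other probe set). Tpx2, a microtubule nucleation factor that activates Aurora A, read 184 and 216 (-0.22), and its 4 detected probe sets were all lower, from -0.25 to -0.05. Prc1, the bundler of midzone microtubules, read 531 and 605 (-0.18, with -0.14 in its other probe set). Kif2c, a microtubule depolymerase, read 193 in the knockout and 175 in the wild type (0.15), and its 3 detected probe sets ran from 0.01, in one that was equal on the arrays before centring, to 0.16. The remaining genes differed by less than 0.08. Kif22 read 1069 and 1136 (-0.07), Kif20a 166 and 174 (-0.05), Kif11 358 and 362 (-0.0017) and Hmmr 387 and 391 (0.00065). Kif4 read 147 on both arrays. The median of these 9 genes was -0.0017, a value whose sign turned under 3 settings.

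The remaining cytokinesis genes and the condensation genes completed the list. Anln, which encodes the contractile ring protein anillin, read 176 in the knockout and 201 in the wild type (-0.18). Ect2, the exchange factor that activates RhoA at the division plane, read 322 and 315 (0.04). The cytokinesis median, which includes Racgap1, was -0.18 over 3 genes and ran from -0.20 to -0.13 over all settings. It rested on 1 gene, Anln, when probe sets marked _s_at, _x_at or _a_at were left out. The DNA topoisomerase gene Top2a read 2679 in the knockout and 2696 in the wild type (0.0044, with 0.28 in a dimmer probe set). The proliferation marker gene Mki67 read 1655 and 1818 (-0.12).

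Condensin subunits, which compact chromosomes, had no common direction. Smc4 read 2274 in the knockout and 2429 in the wild type (-0.08, with -0.06 and 0.08 in its other probe sets). Its partner Smc2 read 594 and 595 (0.01), although its other 3 detected probe sets were lower (-0.16, -0.22 and -0.25). Ncapd2 was higher in both probe sets, with 538 and 498 in the brighter one (0.13) and 0.24 in the other. Ncapg read 161 and 177 (-0.12, with 0.19 in its other probe set), and Ncaph read 386 on both arrays (with -0.05 in its other probe set). The median of the 7 condensation and structure genes was 0.0044 and became negative under 6 of 10 alternative settings.

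**Figure D2:**
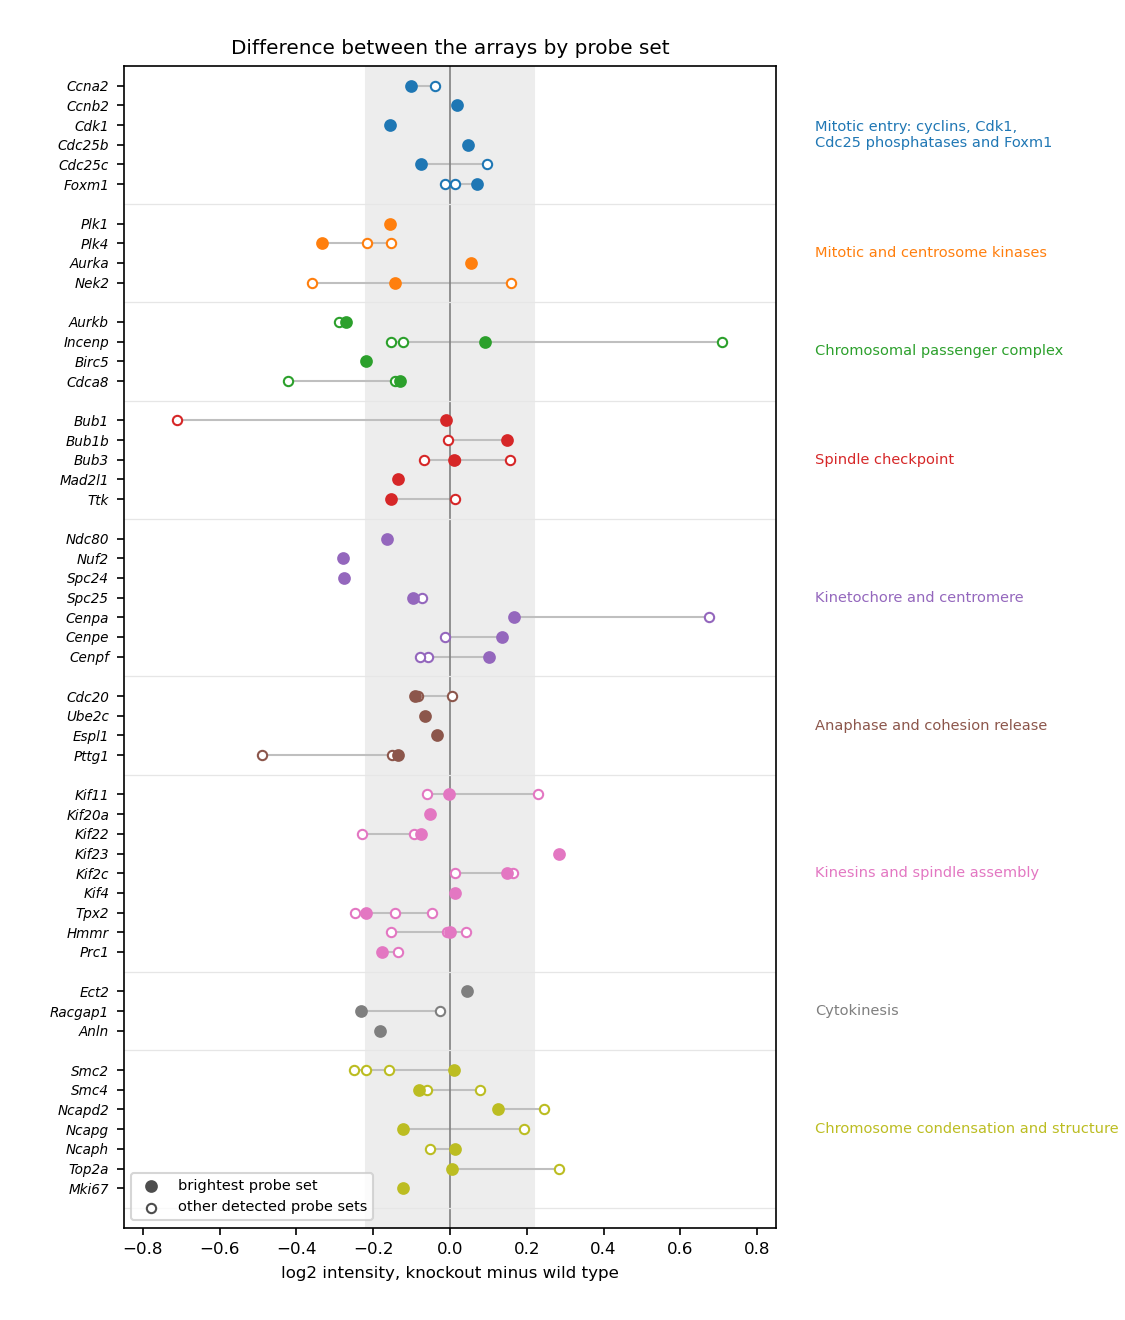
Difference between the arrays (log2 intensity, knockout minus wild type) for each detected probe set of the 49 genes, with filled points for the brightest probe set, open points for the others and a line across each gene's range. The grey band is the SD of a single probe set over all genes (0.22 on each side of 0), and most filled points lie inside it.

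Probe sets of one gene often disagreed in direction. Of 31 members with several probe sets above the floor on both arrays, 14 were lower in all of them by the deposited values (45.2%, against 30.9% of 4761 such genes), 2 were higher in all of them (6.45%, against 24.5%) and 12 held both directions (38.7%, against 39.9%). In the other 3 at least 1 probe set was equal on the arrays and none of the rest opposed each other. In 4 members the probe sets spanned at least 0.5 on the log2 scale, a share that was not counted over all genes. The SD of one probe set around its gene was smaller in the members (0.17) than over all genes (0.22). Of all 101 detected member probe sets, 65 were lower and 36 higher, with 6 that were equal before centring counted as higher. Of all detected probe sets of 1 gene, 49.4% were lower and 50.6% higher. Counting at 1.2-fold, 9 were lower (8.91%, against 12.4%) and 4 higher (3.96%, against 14.9%). The only probe sets past 1.5-fold were the dim ones of Incenp and Cenpa, which were higher (3.06% of all passed upwards), and that of Bub1, which was lower (1.46% passed downwards). All 3 lay outside the top range above the 75th percentile on at least 1 array. The SD of the difference was 0.14 among the 70 member probe sets above the 75th percentile on both arrays and 0.27 among the other 31.

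**Figure D3:**
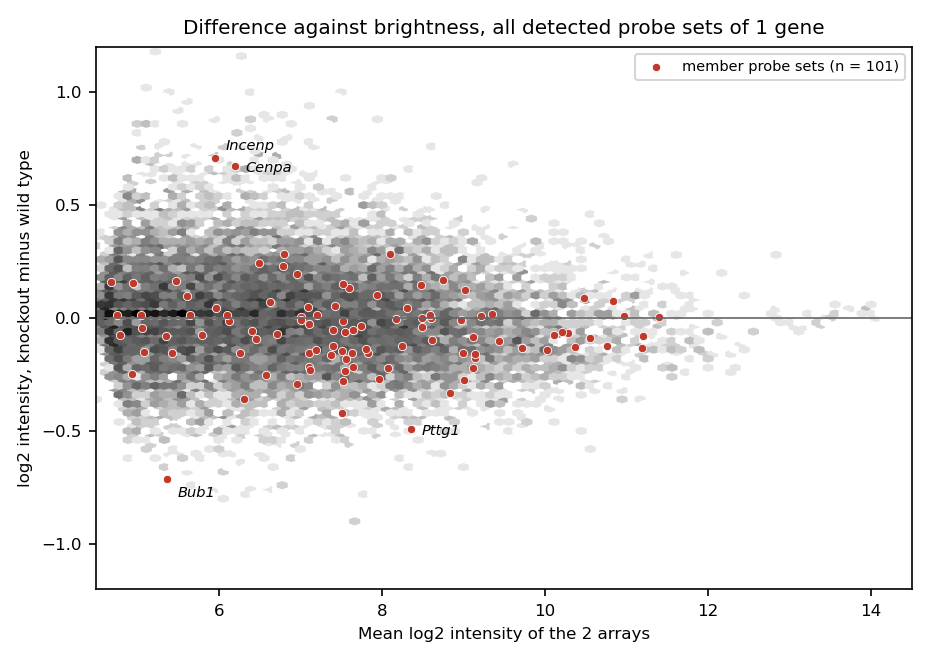
Difference (log2 intensity, knockout minus wild type) against the mean log2 intensity of the 2 arrays for all detected probe sets of 1 gene (grey, darker where more lie together) and for the 101 detected member probe sets (red). The member points that stand farthest out, of Incenp (0.71), Cenpa (0.67) and Bub1 (-0.71), are dim, while the farthest of the brighter ones is a probe set of Pttg1 at -0.49 (275 and 390).

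Other lists of the same machinery were set beside these genes. Of 71 detected further mitosis genes, 47 were lower and 24 higher, with a median of -0.04. By at least 1.2-fold, 9 of the 71 were lower and 2 higher, where 11.7% and 13.2% of all detected genes were. Ska3, a kinetochore gene, differed most (31.7 in the knockout and 61.3 in the wild type, -0.94), followed by Cenpb (-0.49) and Cenpp (-0.37). Ska3 and Cenpb (57.1 and 80.7) were dim, under the 75th percentile on both arrays. The knockout value of Ska3 lay near the floor of 25.9. Genes of the anaphase-promoting complex, with its coactivator gene Fzr1 and its E2 enzyme gene Ube2s, had a median of 0.01 over 14 genes, none of them past 1.2-fold, with Anapc2 at 0.24, Ube2s at -0.15 and Cdc23 at -0.13. Cohesin and its loaders had a median of -0.03 over 14 genes. There Cdca5, which encodes the cohesion protein sororin, read 702 and 930 (-0.39) and Esco2 49.0 and 63.4 (-0.36), while Pds5a was higher (283 and 227, 0.33).

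DNA replication genes, which act earlier in the cell cycle, had a median of -0.15 over 45 genes, with 36 lower and 9 higher. By at least 1.2-fold, 9 of the 45 were lower and 1 higher, where 11.7% and 13.2% of all detected genes were. Orc1 (0.45), Pold2 (-0.37) and Gins1 (-0.33) differed most among them. The mitosis and spindle genes' median of -0.07 lay nearer to 0, and the difference between these lists was not tested. A list of cell cycle inhibitor and Rb family genes also held Lin9, Lin37, Lin52, Lin54 and E2f4. Its median was -0.05 over 13 genes, with 7 lower and 6 higher. Cdkn1a read 2480 in the knockout and 3207 in the wild type (-0.36, with -0.57 in its other probe set). Rb1 (-0.35) and Cdkn2c (-0.29) came next in size.

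**Figure D4:**
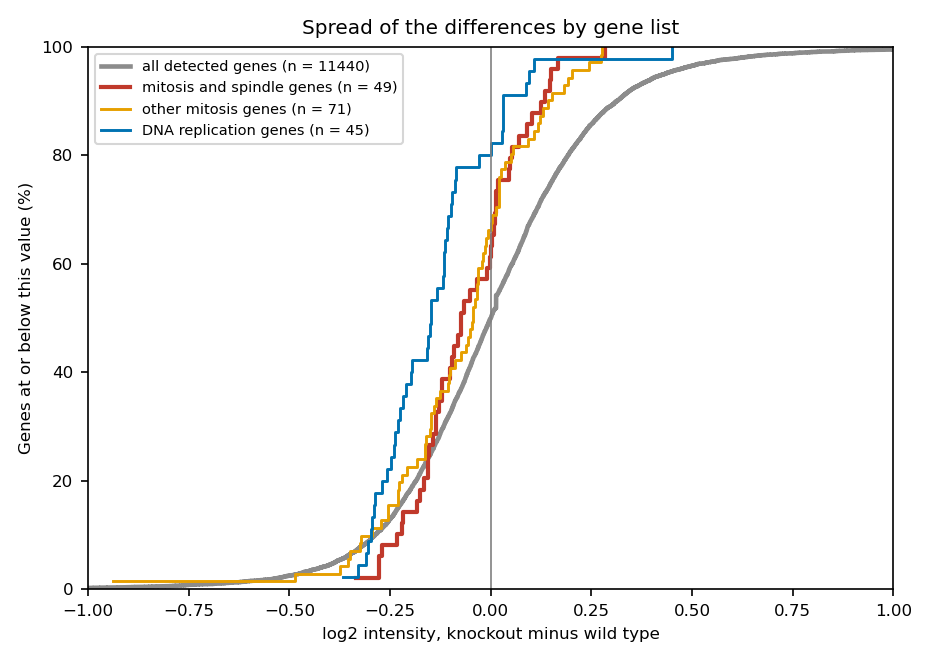
Share of genes (percent) at or below each difference (log2 intensity, knockout minus wild type) for all 11440 detected genes, the 49 mitosis and spindle genes, 71 other mitosis genes and 45 DNA replication genes. The curve of the mitosis and spindle genes is steeper than that of all genes, and the replication genes lie farthest to the left, with a median of -0.15.

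Members were also set apart by the motifs of their promoter windows. The 27 measured members with both TTTGAA and CCAAT in a window had a median difference of -0.0017, with 14 lower and 13 higher. The 13 with a window that lacked at least 1 of the motifs had a median of -0.13, with 9 lower and 4 higher. Over all detected genes with a window the medians were 0.00082 for 524 genes with both motifs and -0.0016 for 8765 genes without both. The split by motifs was not among the planned results, and it left out the 9 members without a window. The gap between the members' medians was not tested.

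Checks of the labels and of other cell types frame these values. Ppm1d itself read 160 in the knockout and 167 in the wild type in its brighter probe set (-0.05) and 59.0 and 55.6 in the other (0.10). The labels do not place these probe sets inside or outside the deleted part, and they may therefore not test the genotype. The samples also differed in transcripts that depend on sex. Xist was lower in the knockout in all 3 of its probe sets (-0.86 to -0.58) but bright on both arrays. Its brightest probe set read 3778 in the knockout and 6228 in the wild type. The Y-linked Eif2s3y read 149 in the knockout and 31.8 in the wild type. All 10 measured stem cell markers were detected on the arrays. By the deposited values 4 were higher, 5 lower and 1 equal, with a median difference of -0.03, with Hlf (0.70) and Slamf1 (-0.66) farthest apart, and with summed intensities of 6414 in the knockout and 5596 in the wild type. Lymphoid progenitor and B cell markers were higher in 9 of 10 genes and equal in Pax5 (sums of 6951 and 3195). Dntt (5492 and 2228) made up most of these sums. The wild-type readings of Ebf1 (20.7) and Rag1 (19.9) fell below that array's floor of 25.2, so their differences are bounds. Monocyte and macrophage markers were higher in 5 of 7 (2128 and 1607). Among these, Csf1r (770 and 294) had the widest gap, and C1qc (45.2 and 24.3) was also a bound. Myeloid progenitor and neutrophil markers were lower in 8 of 10 (13772 and 16227), among them Mpo (-0.57), and megakaryocyte markers in 6 of 6 (651 and 932). Erythroid markers were higher in 5 of 11 and lower in 6 by the deposited values, with 4 lower and 1 higher by at least 1.2-fold, among them Gata1 (-0.84) and Aqp1 (-0.76). Their sums of 4946 and 4624 rest mostly on Car2 (3868 and 3383). T and natural killer cell markers were higher in 1 of 4 (767 and 944). Of the marker lists, Adgre1, Alas2, Rhag, Hba-a1, Ppbp, Cd3d, Cd3g, Cd8b1, Gzma and Ncr1 were under the floor on both arrays. Other defining markers of the same cell types were above it, among them Cd3e (33.4 and 39.0), Klf1 (39.8 and 48.7), C1qa (46.4 and 34.1) and Pf4 (164 and 283). The part of cell composition and of sex in the differences of mitosis genes was not tested.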

How the data were processed

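Total RNA of each sample was hybridised to 1 Affymetrix array, per the labels. The deposited values are linear intensity values, 1 for each probe set on each array. MAS5 is named in the submitters' processing notes, with no version, and no source states that it made these values. The platform annotation gave 34945 of 45037 probe sets 1 gene, 932 several and 9160 none, and 34741 matched the reference gene table (GRCm38.p6) by identifier. Probe sets with exactly equal values on both arrays numbered 2535 (5.63%).

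The arrays were scaled to a median log2 difference of 0 over detected probe sets of 1 gene, floored at each array's median (25.9 in the knockout and 25.2 in the wild type) and converted to log2. The brightest probe set stood for a gene. All members were described; those past 1.2-fold, the 3 largest of each other list and Ppm1d were to be named. Members, lists and groups were chosen with earlier results of these data known, and the Ndc80 complex, centralspindlin and the printed promoters after the values were seen. The steps were tested on simulated data. Python 3.11.15, numpy 2.4.6, pandas 2.3.3 and statsmodels 0.14.6 were used. The number of arrays limits the precision.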

Additional observations from a re-analysis of the deposited data

How the results depend on the processing

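The members' median stayed below 0 under all 10 alternatives, from -0.09 to -0.04. After quantile normalization it was -0.037, and the median of all detected genes was also below 0, at -0.025. With that setting 63.3% of members and 54.0% of all detected genes were lower. The medians of the kinases, the chromosomal passenger complex, anaphase and cohesion release and cytokinesis kept their sign. When only plain _at probe sets were used, the passenger complex rested on 2 genes and cytokinesis on 1. Condensation and structure turned to -0.0090 without centring and without a floor, -0.0026 with a floor at the 25th percentile, -0.019 with each gene at the median of its detected probe sets, -0.021 when only unique (plain _at) probe sets were used, and -0.043 without probe sets equal on both arrays. The spindle checkpoint turned to 0.013 after quantile normalization, 0.021 after loess and 0.010 with a floor at the 75th percentile. Kinesins turned to 0.0098 after loess, 0.018 with that floor and 0.0016 with the floor as an offset. Mitotic entry turned to 0.012 with probe set medians, and kinetochore and centromere to 0.014 with unique probe sets. The members lower by at least 1.2-fold numbered 2 after loess, 1 with a floor at the 75th percentile and 1 with the offset, and Plk4 was among them in each. Plk4 itself did not reach that size with probe set medians (-0.22) and with unique probe sets (-0.15), since its brightest probe set is an _s_at one. Those higher by that much numbered 2 with probe set medians and 3 with unique probe sets, where 12 of 38 were higher and 1, Cenpa, passed 1.5-fold. Kif23 passed 1.2-fold under every setting (0.26 to 0.30). The sign of 13 members turned under at least 1 alternative. In 5 of them the difference had been at least 0.05 in size, namely Incenp (to -0.12 with unique probe sets), Bub1b (to -0.0062 with these) and, with probe set medians, Cenpf (to -0.06), Ncapg (to 0.04) and Cdc25c (to 0.01). With these medians Smc2 turned to -0.19. The cause of these shifts was not tested. No paired analysis was possible because each genotype has 1 array. With no detection call used here, brightness is the only guide to signal over background.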

Other observations

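Some deposited values share a fractional part. With a tolerance of 0.0001, 3.76% of the knockout values and 3.69% of the wild-type values lay on a grid with a step of 0.5 and a remainder of 0.1584, so that they end in 0.1584 or 0.6584. A total of 1590 probe sets did so on both arrays, which is 93.8% of those on the grid in the knockout. Among the members' brightest probe sets these were Prc1, Cenpf, Tpx2 and Cdc20, whose arrays differ by whole steps of the grid: the wild-type value exceeds the knockout value by 74.5 in Prc1, 32 in Tpx2 and 108.5 in Cdc20, and it is 15 units below in Cenpf. The origin of the grid was not tested.

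One probe set assigned to Foxm1 together with Tex52 and Pebp1 was left out by the rule for members. It read 113 in the knockout and 110 in the wild type (0.05), close to the 0.07 of the brightest Foxm1 probe set.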
